A study of Mus musculus with 6 samples.

Results

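A set of transcription factor genes that mark the ventral forebrain and the striatum, in development and in adult neurons, was followed through RNA sequencing libraries of the adult mouse optic nerve. They are Dlx1, Dlx2, Dlx5, Dlx6, Sp8, Sp9, Meis2, Foxp1, Foxp2 and Rarb, 10 of the 24062 genes in the deposited counts. They were chosen by name with the values of mutant and control libraries known, so their differences between the groups are a description, and the calls of the fit over all genes are not evidence about them. All 10 were found by symbol, and 9 of them were among the 16315 genes with enough counts to be fitted. Sp8 did not pass the low-count filter of the fit. It had 174 and 204 counts in mutant libraries 1 and 3 but at most 8 in each other library.

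The study asks what loss of Nf1 in mature oligodendrocytes does to the nerve. Nf1 encodes neurofibromin, a protein that lowers Ras activity. The 3 mutant libraries (titled NF1 f/f) have the genotype PlpCreERT2;Nf1flox/flox, in which tamoxifen activates a Cre recombinase driven by the promoter of Plp, a myelin gene, in cells with floxed Nf1 alleles. Control library 1 is Nf1flox/flox, control libraries 2 and 3 are Nf1flox/+, and the labels give none of the 3 a Cre. Adults over 2 months of age received tamoxifen, by a protocol the labels give for all 6 libraries, and nerves were taken 1 month later. Whether each library comes from an animal of its own is not stated in the labels. The p-values therefore describe only how far these libraries spread, and part of that spread may be technical.

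The optic nerve carries axons of retinal ganglion cells and holds glia, vessels and meninges, while the cell bodies of forebrain neurons lie elsewhere. In the embryo, Dlx, Sp8, Sp9 and Meis2 act in the ganglionic eminences, the ventral zones that produce striatal projection neurons and the GABA-releasing interneurons of cortex and olfactory bulb. Foxp1, Foxp2 and Rarb are known for their expression in striatal projection neurons, the main output cells of the striatum.

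Library totals ran from 13555756 to 23662698 counts, and mutant libraries 2 and 3 were the shallowest. Mutant library 2 stood apart from mutant libraries 1 and 3. The summed level of 12 markers of mature oligodendrocytes was 27640 to 28570 CPM (counts scaled to a common library size) in controls and 35960 CPM in mutant library 2, but 5824 and 4934 CPM in mutant libraries 1 and 3. Control libraries 1 and 3 held 58 and 34 counts of Xist and 6275 and 7213 counts of Y-linked genes. Control library 2 and the mutants held 30602 to 72727 counts of Xist and 0 of the Y-linked genes, so sex markers differed within the controls and were of 1 kind in the mutants. Values of the 10 genes are therefore given by library. The part of these differences in the values below was not tested. In tissue samples such as these, fewer cells of a type and less RNA per cell cannot be told apart.

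All 9 fitted genes had positive log2 fold changes of mutant over control, with a median of 1.80. The median over all 16315 genes tested was -0.002, and 49.9% of them were positive. By edgeR's quasi-likelihood test with Benjamini-Hochberg adjustment over all genes, 3 of the 9 were past an adjusted p of 0.05 upward (Dlx5, Sp9 and Meis2) and 0 downward, where 2.95% of all genes tested were called higher and 0.337% lower. In 6 of the 9 (Dlx5, Dlx6, Sp9, Meis2, Foxp2 and Rarb) every mutant library was above every control, against 12.5% of all genes tested. Since the genes were chosen on this contrast, nothing is read from these counts. Mutant library 2 had the lowest of the 3 mutant values in each of the 10 genes. Within the libraries of high Xist, where control library 2 is the only control, log2 fold changes were 5.76 for Meis2, 4.77 for Sp9, 4.59 for Dlx6, 2.63 for Dlx5, 2.14 for Dlx1, 1.59 for Dlx2, 1.12 for Rarb, 1.06 for Foxp2 and 0.48 for Foxp1, and none was past the threshold. Without mutant library 2 all 10, Sp8 included, were past the threshold, in a fit that called 4551 of 16857 genes. Without control libraries 1, 2 or 3 the number was 1, 1 and 2, where 51, 81 and 112 genes were called in all. It was 2 without mutant library 1 or 3, where 164 and 199 genes were called. These fits tested 16583 to 16788 genes.

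**Figure D1:**
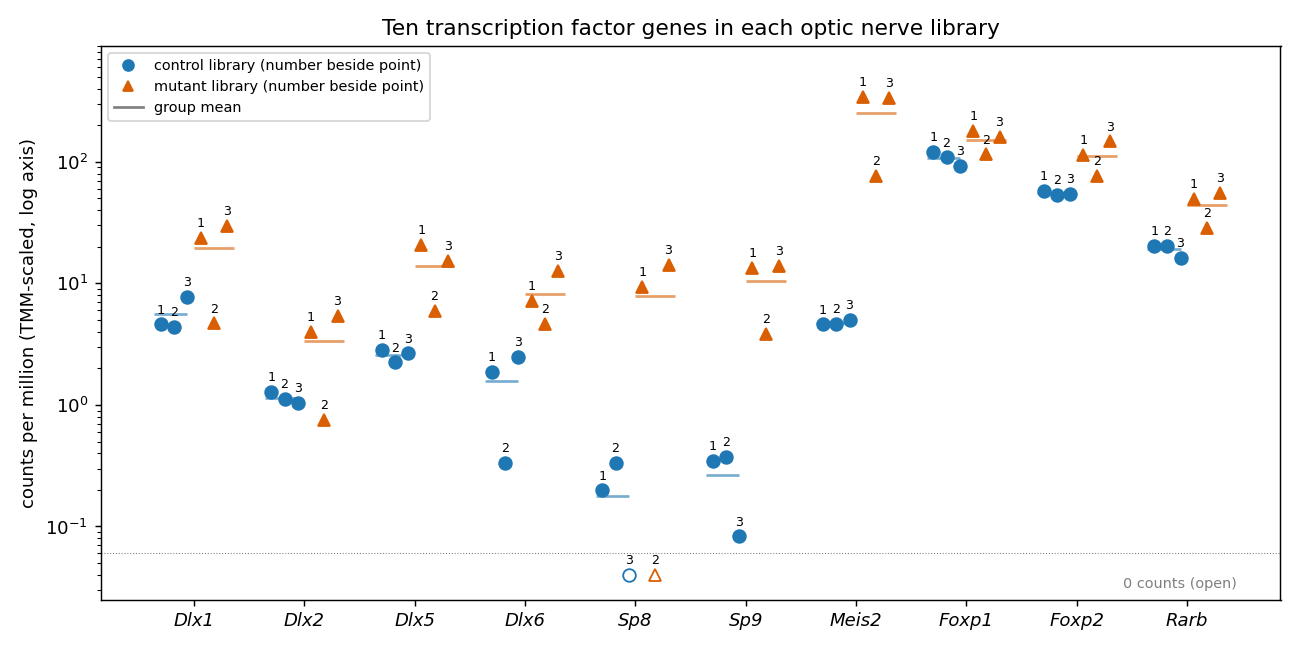
CPM (log axis, counts scaled by TMM library sizes) of the 10 genes in each of 3 control libraries (circles) and 3 mutant libraries (triangles), numbered by library, with lines at group means and open symbols for 0 counts. Mutant libraries 1 and 3 lie above all controls in every gene, whereas mutant library 2 lies among or below the controls for Dlx1, Dlx2, Sp8 and Foxp1.

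Meis2 had the largest difference among the fitted members. It encodes a homeodomain protein of the TALE class, whose members bind DNA together with Pbx partners, and it is expressed in the striatal primordium and in adult striatal neurons. The gene (chromosome 2, 115861264 to 116065058, minus strand, 14 exons) had 4.61, 4.64 and 4.98 CPM in control libraries 1, 2 and 3 and 343, 77.2 and 336 CPM in mutant libraries 1, 2 and 3. The controls were tight, with their highest value 1.08 times their lowest, and each mutant library was far above them. The corresponding counts were 93, 112 and 120 against 6358, 1021 and 4818. Mutant library 2 reached 22.7% of the mean of the other two mutant libraries and was still 16.3 times the control mean. The log2 fold change was 5.73 (SE 0.58), and it was 6.17 without mutant library 2 and 5.44 to 5.76 without each of the other libraries.

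Sp8 and Sp9 encode closely related zinc finger proteins. Sp9 acts in the lateral ganglionic eminence and in striatal neurons of the D2 receptor class, and Sp8 in olfactory bulb interneurons and their precursors. Sp9 (chromosome 2, 73271926 to 73275771, plus strand, 2 exons) had 0.347, 0.373 and 0.0830 CPM in controls and 13.4, 3.85 and 13.9 CPM in mutants. These are 7, 9 and 2 counts against 249, 51 and 199, so the control levels rest on few fragments. The log2 fold change was 5.26 (SE 0.72), with 4.82 to 5.66 over the fits that each left out 1 library. Sp8 (chromosome 12, 118846329 to 118852578, plus strand, 3 exons) had 4, 8 and 0 counts in controls and 174, 0 and 204 counts in mutants, or 0.198, 0.332 and 0 CPM against 9.39, 0 and 14.2 CPM. The 0 in control library 3 allows up to 3 counts, or 0.1245 CPM, and that in mutant library 2 up to 3 counts, or 0.227 CPM. The Sp8 and Sp9 values thus parted in mutant library 2, where Sp9 had 51 counts and Sp8 none, while in mutant libraries 1 and 3 Sp9 stood at 2.28 and 1.55 times Sp8 per kb of exon. With no filter on low counts, Sp8 had a log2 fold change of 5.43 (SE 1.34).

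The stretches just upstream of the starts of Sp9 and Sp8 in the deposited gene models are shown because the pair parted in mutant library 2, and that of Dlx2, a gene at or below the controls there, is shown beside them. They are from RefSeq on GRCm38.p6, the assembly behind mm10, 5′ to 3′ on the strand of the gene, and 7 of the 10 genes matched that table. Sp9 is chr2:73271676-73271924 (plus), Sp8 is chr12:118846079-118846328 (plus) and Dlx2 is chr2:71546755-71547004 (minus). Capitals mark matches, on either strand, to the GC box GGGCGG bound by Sp factors, the TALE core TGACAG, the homeodomain core TAATTA, the forkhead core TGTTTA or the retinoid receptor motif AGGTCA.
Sp9: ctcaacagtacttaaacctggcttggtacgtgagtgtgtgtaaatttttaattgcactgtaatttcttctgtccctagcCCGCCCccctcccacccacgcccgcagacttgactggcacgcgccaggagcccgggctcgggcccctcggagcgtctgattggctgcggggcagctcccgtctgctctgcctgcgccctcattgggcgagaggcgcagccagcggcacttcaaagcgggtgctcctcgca
Sp8: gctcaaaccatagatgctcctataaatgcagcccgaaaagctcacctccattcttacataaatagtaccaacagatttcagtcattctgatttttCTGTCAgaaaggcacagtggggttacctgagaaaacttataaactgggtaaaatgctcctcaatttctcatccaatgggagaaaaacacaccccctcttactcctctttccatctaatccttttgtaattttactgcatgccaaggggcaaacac
Dlx2: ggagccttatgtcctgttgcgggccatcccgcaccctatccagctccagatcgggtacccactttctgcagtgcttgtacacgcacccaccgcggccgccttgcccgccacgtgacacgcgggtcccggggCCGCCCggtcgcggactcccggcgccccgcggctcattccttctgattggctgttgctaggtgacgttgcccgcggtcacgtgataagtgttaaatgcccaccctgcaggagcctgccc
The Sp9 and Dlx2 stretches each held 1 GC box, 171 and 119 bases upstream of the start, and the Sp8 stretch held 1 TALE core, 155 bases upstream. RefSeq gives Sp8 other starts, 904 and 1230 bases downstream. The window before the nearer of these held a GC box 14 bases upstream and an AGGTCA match 120 bases upstream, and the window before the farther one held TAATTA 188 bases upstream. Among 32851 promoter windows of 250 bases, 32.7% held the GC box and 15.9% the TALE core, while 4.8% held TAATTA, 12% TGTTTA and 14% AGGTCA. GC content was 62.2% for Sp9 and 66.4% for Dlx2. It was 40.8% for the Sp8 stretch shown and 67.2% and 50.0% for the windows of the other Sp8 starts, against a median of 52.4% over all windows. Which Sp8 start is used in these libraries was not tested. The motif matches describe letters in a window and were not measured as binding.

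The 4 Dlx genes encode homeodomain proteins that specify GABA neurons, and they lie in 2 pairs of genes that face each other. Dlx1 (chromosome 2, 71529445 to 71533980, plus strand) and Dlx2 (chromosome 2, 71543408 to 71546754, minus strand) are 9.4 kb apart. Dlx6 (chromosome 6, 6863334 to 6867970, plus strand) and Dlx5 (chromosome 6, 6877801 to 6882068, minus strand) are 9.8 kb apart. Sp9 lies 1.74 Mb from Dlx1 on the same chromosome.

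Dlx5 had 2.82, 2.24 and 2.66 CPM in control libraries 1, 2 and 3 and 20.6, 5.89 and 15.2 CPM in mutant libraries 1, 2 and 3. Its partner Dlx6 had 1.88, 0.332 and 2.49 CPM in controls and 7.18, 4.61 and 12.6 CPM in mutants. Neither gene's groups overlapped, and both were above the controls in mutant library 2, at 2.29 and 2.94 times the control mean. The log2 fold changes were 2.43 (SE 0.47) for Dlx5 and 2.37 (SE 0.70) for Dlx6. The controls of Dlx6 were spread 7.50-fold because control library 2 had 8 counts, and its log2 fold change was 1.90 without that library. The 4.59 given for Dlx6 among the libraries of high Xist is measured against that library alone.

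The other pair was not above the controls in mutant library 2. Dlx1 had 4.61, 4.40 and 7.72 CPM in controls and 23.8, 4.69 and 29.7 CPM in mutants. Dlx2 had 1.29, 1.12 and 1.04 CPM in controls and 3.99, 0.756 and 5.37 CPM in mutants. Mutant library 2 was thus within the control range for Dlx1 and below it for Dlx2, where it had 10 counts, while mutant libraries 1 and 3 were above all controls. Relative to the mean of the other mutant libraries, mutant library 2 stood at 17.5% for Dlx1 and 16.1% for Dlx2, but at 32.9% for Dlx5 and 46.6% for Dlx6. The log2 fold change was 1.80 (SE 0.60) for Dlx1 and 1.55 (SE 0.69) for Dlx2, and 2.27 and 2.03 without mutant library 2. Per kb of exon, Dlx1 stood at 3.18 to 6.62 times Dlx2 in controls and 4.92 to 5.52 times in mutants, ranges that overlap.

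Counting took no account of strand, and noncoding RNAs run through both Dlx pairs on the opposite strand. Exons of Dlx1as cover 1055 bases of the exons of Dlx1, which is 38.0% of them, and exons of Dlx6as2 cover 104 bases, or 9.7%, of those of Dlx6. Reads from these stretches cannot be assigned to 1 strand. With no recorded option to count a fragment for more than 1 gene, fragments there may have been counted for neither. The values of both Dlx genes and both RNAs may therefore be too low. The same holds for the levels of Dlx1 and Dlx6 per kb, which use the full exon length, and for the ratio of Dlx1 to Dlx2. Dlx6os1, a long noncoding RNA across the Dlx6 gene that is known as Evf2 and acts with Dlx proteins, shares no exon bases with Dlx6. It had 6.29, 1.91 and 2.45 CPM in controls and 97.2, 30.8 and 154 CPM in mutants, with no overlap. It rose by 4.73 on the log2 scale (SE 0.68, edgeR adjusted p 0.0106), but without control library 2 or control library 3 the adjusted p was 0.0630 and 0.0687. Dlx1as had 0.693, 0.207 and 0.622 CPM in controls and 6.37, 0.151 and 5.79 CPM in mutants, and was thus low in mutant library 2 as Dlx1 and Dlx2 were. Of the 4 fitted Dlx relatives and RNAs of these loci, Dlx6os1 alone passed. Dlx3, a family member of skin and bone, was at -2.90 on the log2 scale (SE 0.88, with an edgeR adjusted p of 0.12) and Dlx4 had -0.49.

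Foxp1 and Foxp2 encode forkhead repressors. Foxp2 (chromosome 6, 14901349 to 15441977, plus strand, 20 exons) had 57.6, 53.9 and 54.7 CPM in controls and 114, 76.3 and 147 CPM in mutants. Its groups did not overlap, and the log2 fold change was 1.02 (SE 0.27). Foxp1 (chromosome 6, 98925342 to 99435345, minus strand, 21 exons) had 120, 109 and 93.3 CPM in controls and 180, 115 and 160 CPM in mutants. Mutant library 2 was inside the control range of Foxp1, and its log2 fold change of 0.50 (SE 0.24) was the smallest of the 9. Per kb of exon, Foxp1 stood at 1.61 to 1.97 times Foxp2 in controls and 1.03 to 1.49 times in mutants, so the ratio was lower in every mutant library than in any control. The family members Foxp3 and Foxp4 had log2 fold changes of 0.48 and -0.56, and 0 of the 2 passed.

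Rarb encodes the beta form of the retinoic acid receptor, which binds DNA with a retinoid X receptor. The gene (chromosome 14, 16430840 to 17082331, minus strand, 11 exons) had 20.5, 20.5 and 16.1 CPM in controls and 49.4, 28.6 and 55.7 CPM in mutants. All mutant libraries were above all controls, and mutant library 2 was the nearest to them. The log2 fold change was 1.23 (SE 0.29), with 1.04 to 1.47 when 1 library was left out. Rarb is a textbook target of retinoic acid, through a repeat of a short motif near an internal start. That stretch is shown because it is the element for which the gene is known. It is chr14:16575506-16575535 on the minus strand, from RefSeq on GRCm38.p6, with both copies of GTTCA in capitals.
Rarb: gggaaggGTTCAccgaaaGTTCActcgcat
The copies are separated by 6 bases, and the upstream end of the pair is 52 bases before the RefSeq start at that place. A pair of GTTCA copies with this spacing, on either strand, was found in 22 of the 32851 windows, or 0.067%.

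**Figure D2:**
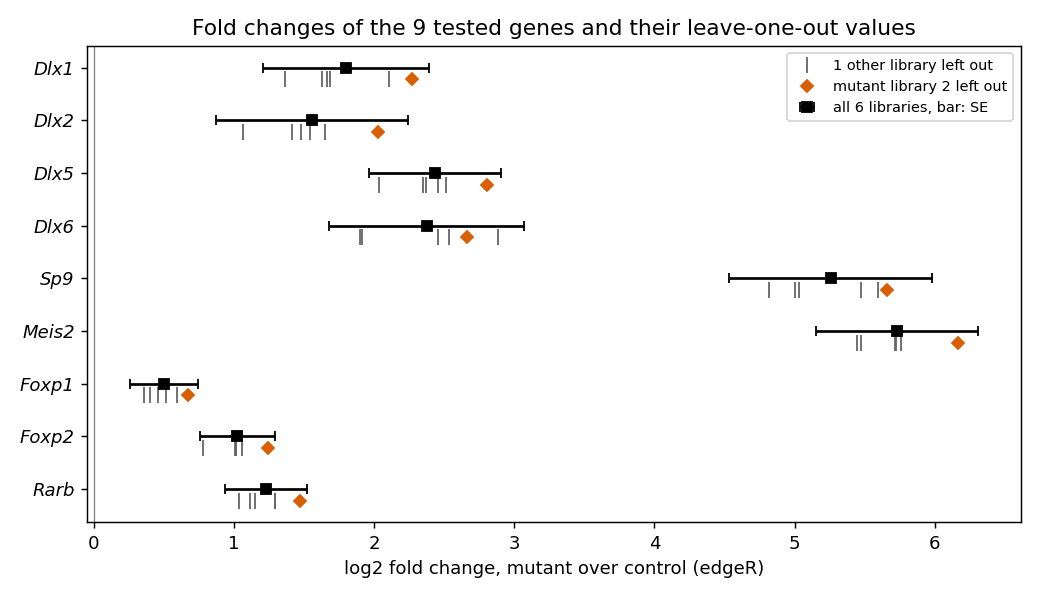
Log2 fold change of mutant over control libraries (x axis) for the 9 fitted genes, with squares and bars for the value and SE over all 6 libraries, ticks for fits without 1 other library and diamonds for the fit without mutant library 2. Values run from 0.50 for Foxp1 to 5.73 for Meis2, every value is above 0, and each diamond lies to the right of its square.

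Levels can be compared between genes once divided by exon length, though those of Dlx1 and Dlx6 may be low because of the overlaps described above. In controls Foxp1 was highest, at 14.3 ± 1.79 CPM per kb (mean ± SD, n = 3 here and in the rest of the paragraph), followed by Foxp2 at 7.84 ± 0.279 and Rarb at 5.04 ± 0.672. The library ranges of these 3 did not overlap one another or those of the genes below. Dlx1 (2.00 ± 0.669 CPM per kb), Dlx5 (1.82 ± 0.213) and Dlx6 (1.46 ± 1.04) could not be ordered beyond their ranges, nor could Dlx6 and Meis2 (0.900 ± 0.0389). Dlx2 followed at 0.464 ± 0.0516 CPM per kb, and Sp9 and Sp8 were lowest and overlapped, at 0.0951 ± 0.0571 and 0.0394 ± 0.0373.

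In mutants Meis2 was in front, at 47.9 ± 28.8 CPM per kb, ahead of Foxp1 (20.3 ± 4.43), Foxp2 (15.9 ± 5.02), Rarb (11.8 ± 3.76), Dlx5 (9.86 ± 5.28), Dlx6 (7.60 ± 3.82), Dlx1 (6.98 ± 4.71), Sp9 (3.69 ± 2.01), Sp8 (1.76 ± 1.61) and Dlx2 (1.36 ± 0.958). The ranges of all neighbours in this order overlapped. By these means Meis2 moved from the seventh place to the head of the order, and Dlx2 to its end. In mutant library 2 alone Foxp1 was above Meis2, at 15.38 against 14.65 CPM per kb. Sp8, at 0, was below Dlx2 there, at 0.306.

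**Figure D3:**
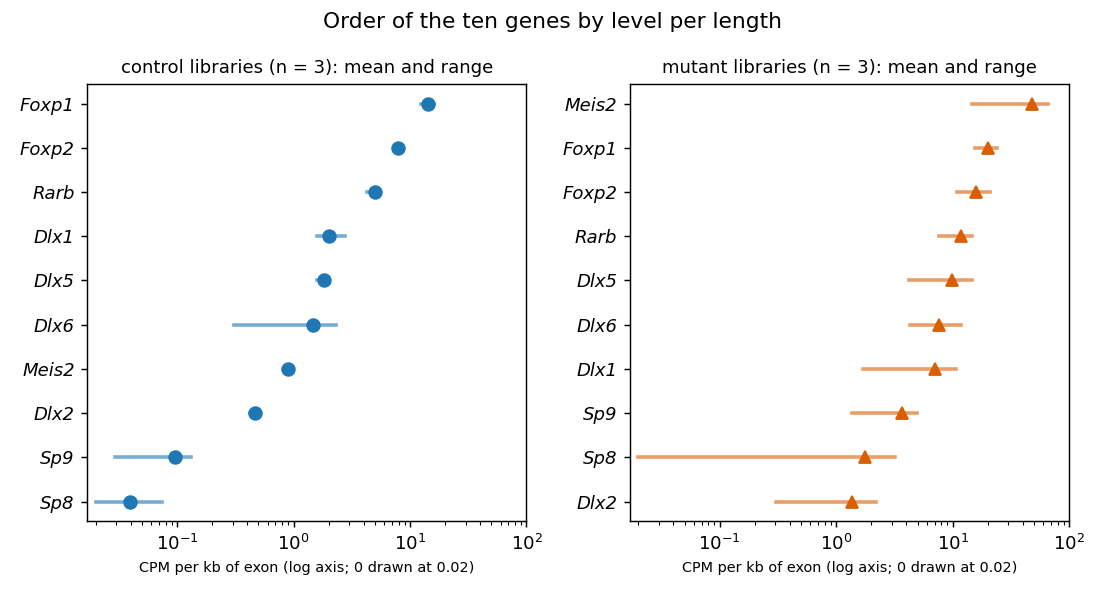
Level per kb of exon (CPM per kb, log axis) of the 10 genes in the 3 control libraries (left) and the 3 mutant libraries (right), each panel in its own order, with symbols at the mean and bars over the range. By the mean, Meis2 is the seventh gene in controls at 0.900 CPM per kb and leads in mutants at 47.9. The bars of neighbours are wide in the mutant panel.

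Markers of neuron classes did not move alike, either between classes or between the 3 mutant libraries. Thalamic and midbrain markers had a median log2 fold change of -0.63, with 1 of 6 positive. Of 14 striatal projection neuron markers 13 rose and 0 fell (edgeR, adjusted over all genes), with a median log2 fold change of 3.60, and Pdyn was the exception at 0.91. Their summed level was 258 to 321 CPM in controls and 2910, 1996 and 2048 CPM in mutant libraries 1, 2 and 3. Drd2, the D2 dopamine receptor gene, had 1.19, 1.58 and 1.20 CPM in controls and 55.6, 37.3 and 32.5 CPM in mutants. Drd1a, the D1 receptor gene, had 5.50, 6.47 and 4.23 CPM in controls and 143, 73.3 and 109 CPM in mutants. The adenosine receptor gene Adora2a and the G protein subunit gene Gng7 also rose, by 4.35 and 2.81 on the log2 scale (edgeR adjusted p 0.00143 for each of the 4). The 13 calls were 10 to 14 when 1 library was left out, and 0 within the libraries of high Xist, where the control group is 1 library.

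In log2 units above the control mean, the striatal marker mean was 3.82, 3.30 and 3.13 in mutant libraries 1, 2 and 3. The same quantity was 6.15, 4.00 and 6.12 for Meis2 and 5.30, 3.53 and 5.35 for Sp9. It was 2.12, -0.20 and 2.44 for Dlx1, and 1.71, -0.54 and 2.13 for Dlx2. Foxp1 stood at 0.75, 0.11 and 0.59, Foxp2 at 1.04, 0.46 and 1.41, and Rarb at 1.38, 0.59 and 1.55. The 10 interneuron markers, which are GABA interneuron genes and Chat, a cholinergic gene, had a mean of 1.65, -0.17 and 1.44, and the cortical excitatory markers 3.30, -0.07 and 1.98. In mutant library 2 the striatal markers therefore stood well above control while interneuron and cortical markers did not, and of the 10 genes Meis2, Sp9, Dlx6 (1.85) and Dlx5 (1.17) were above 1 there. Among interneuron markers 1 of 10 rose, which was Chat, and 0 fell, and among the 7 fitted cortical markers 0 passed, with medians of 0.81 and 1.67.

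Oligodendrocyte markers were below control in mutant libraries 1 and 3, and meningeal markers in all 3. The mean of 12 oligodendrocyte markers relative to control was -2.12, 0.18 and -2.58 in mutant libraries 1, 2 and 3 on the log2 scale, and that of 8 meningeal fibroblast markers was -2.58, -0.58 and -2.28. Astrocyte markers had no single direction: 4 of 8 had positive fold changes, their mean stood at -0.54, 0.20 and -0.68, and their summed level was 5704 to 5895 CPM in controls and 6943, 7356 and 5791 CPM in mutants. None of these 3 lists had a member past the threshold, with medians of -0.91, -1.51 and -0.25. Pan-neuronal markers stood at 2.63, 0.92 and 1.96, and 4 of 12 rose, with summed levels of 1170 to 1803 CPM in controls and 8137, 2459 and 5734 CPM in mutants. None of these neuronal and glial markers was at 0 in all 3 controls. Among the remaining cell types, 1 of 9 fitted neuroblast markers rose (Sox11) and 1 of 8 endothelial markers fell (Kdr), while 0 of 6 thalamic and midbrain, 0 of 8 oligodendrocyte precursor and 0 of 8 microglial markers passed by edgeR. Gata3 and Pou4f2 of the thalamic and midbrain list were at 0 in all 3 mutant libraries. The part of any of these cell types in the values of the 10 genes was not tested.

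**Figure D4:**
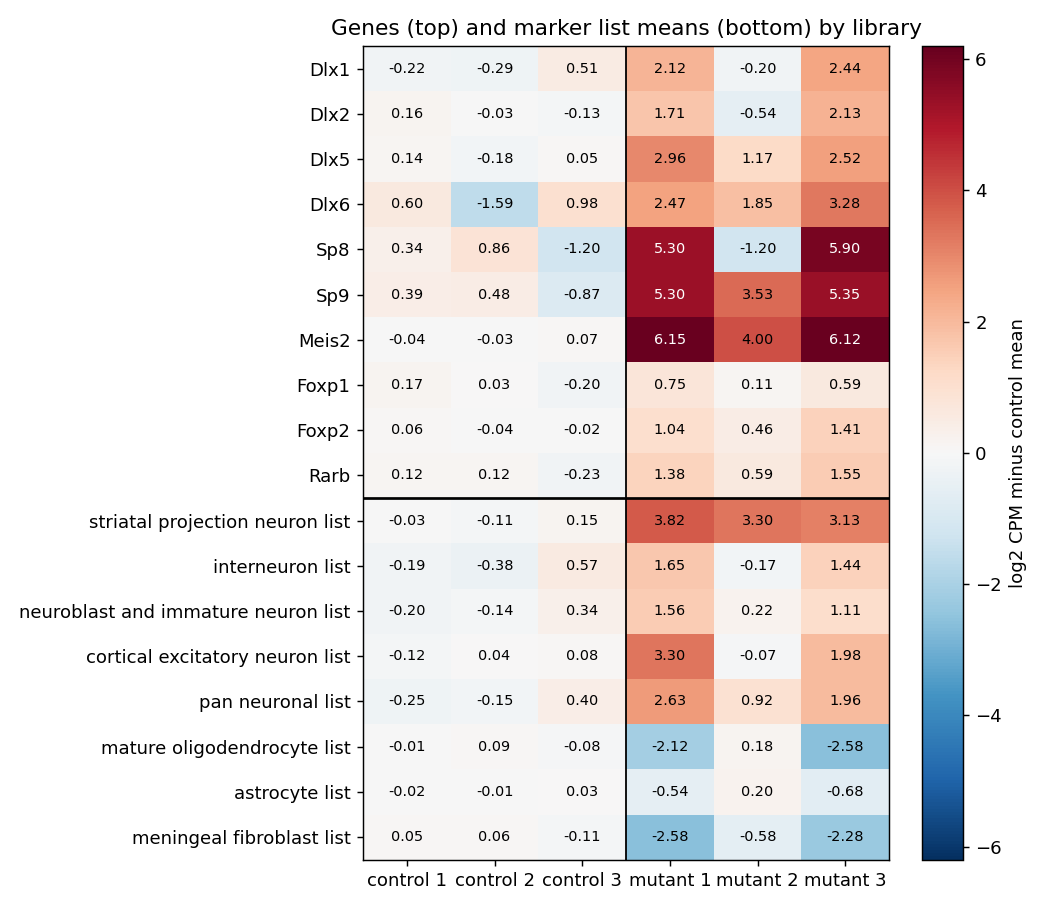
Log2 CPM minus the control mean in each library (columns) for the 10 genes (upper rows) and for the means of 8 marker lists (lower rows), with red above and blue below control. In mutant library 2 the striatal list stands at 3.30 and the interneuron list at -0.17. Meis2 and Sp9 are at 4.00 and 3.53 there, and Dlx6 and Dlx5 at 1.85 and 1.17. Rarb, Foxp2 and Foxp1 are at 0.59, 0.46 and 0.11, and Dlx1, Dlx2 and Sp8 are below 0.

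Other transcription factors of the ventral forebrain were mixed. Of 28 fitted genes in a list of 30, 6 passed upward, Bcl11b, Bcl11a, Mef2c and Lhx8 among them, and 0 downward. Of all genes tested, 2.95% were called higher and 0.337% lower. Positive values were found in 15 of the 28, with a median log2 fold change of 0.20 beside -0.002 over all genes. Every mutant library was above every control in 10 of the 28, against 12.5% of all genes tested. Every mutant library was below every control in 5. These 5 were Ebf1, Zfp521, Ikzf1, Zeb2 and Nr2f2, at -0.82, -0.50, -0.70, -0.63 and -1.34. The share of all genes in that direction was not computed, so nothing is read from the count of 5. Bcl11b, also called Ctip2, which is required for striatal projection neurons, had 8.57, 7.34 and 3.98 CPM in controls and 142, 64.5 and 122 CPM in mutants. It rose by 4.05 (SE 0.41, edgeR adjusted p 0.00223) and stayed past the threshold without each library in turn. Bcl11a rose by 3.17 and Mef2c by 2.14 (edgeR adjusted p 0.0183 and 0.0265). The 6 calls were 1 or 2 without any library other than mutant library 2. They were 15 without that one, where 4551 of all 16857 genes tested were called. Bcl11a and Mef2c each lost their call without any library but mutant library 2.

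Enzymes of GABA synthesis, which Dlx proteins are known to induce, were among the genes that rose. Gad1 had 47.6, 44.4 and 48.1 CPM in controls and 364, 83.7 and 454 CPM in mutants, and rose by 2.69 (SE 0.53, edgeR adjusted p 0.0330). Gad2 had 162, 183 and 308 CPM in controls and 1141, 465 and 1242 CPM in mutants, and rose by 2.12 (SE 0.43, edgeR adjusted p 0.0350). Both lost their call without any library other than mutant library 2 (edgeR adjusted p 0.0878 to 0.191). The vesicular GABA transporter gene Slc32a1 was at 1.63 (edgeR adjusted p 0.0910), and Abat, whose product breaks down GABA, had 0.58. In this list of 6, 2 rose and 0 fell, with a median of 1.10.

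The families to which the 10 genes belong did not share their values. Among 10 TALE relatives and partners of Meis2, 0 passed by edgeR, with a median of 0.32. The Meis partner Pbx3 had 25.1, 31.4 and 31.8 CPM in controls and 99.4, 40.0 and 107 CPM in mutants, with no overlap and a difference of 1.48 on the log2 scale (SE 0.36, edgeR adjusted p 0.0637). DESeq2, edgeR without a low-count filter and edgeR without mutant library 2 called it, with adjusted p of 0.00341, 0.0286 and 0.000162. Values were 0.78 for Pbx4 and -1.08 for Tgif1, while the closest relative Meis1 had -0.28. Among 6 fitted relatives of Sp8 and Sp9, 0 passed, with a median of -0.54 and values of -0.62 for Sp1, -0.77 for Sp2, -0.46 for Sp7 and -1.11 for Sp6.

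Retinoid genes gave values mostly below 0 beside that of Rarb. Among 5 other retinoid receptor genes 0 passed by edgeR, with a median of -0.53, and Rara, Rarg and Rxra were at -0.53, -0.82 and -0.61. Rxrg, the receptor partner known from striatal neurons, had 2.72, 2.82 and 2.28 CPM in controls and 16.3, 1.59 and 9.98 CPM in mutants, high in mutant libraries 1 and 3 and below the controls in mutant library 2. Among 9 fitted genes of retinoic acid synthesis, binding and breakdown 0 passed by edgeR, 1 was positive and the median was -1.29. Aldh1a1, a retinaldehyde dehydrogenase gene, had 361, 457 and 486 CPM in controls and 86.3, 371 and 76.8 CPM in mutants. Aldh1a3 and Crabp2 had values of -1.46 and -1.73. The summed level of this list was 879 to 968 CPM in controls and 197, 778 and 178 CPM in mutants, below every control in all 3 mutant libraries and lowest in mutant libraries 1 and 3.

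Genes beside the 10 on the chromosome mostly stayed near the level of all genes. Of 23 genes within 250 kb, 18 were fitted, and their median log2 fold change was 0.28. Dlx6os1 was the 1 gene that rose and 0 fell. The next smallest p belonged to Dlx6as2 (3.59, SE 1.00, edgeR adjusted p 0.0952) and Dlx1as (3.01, SE 1.06, adjusted p 0.170), which overlap the 2 Dlx pairs, and to Ola1, which lies 57.5 kb from Sp9 (0.75, SE 0.27, adjusted p 0.179). Top2b ends 53 bases from the end of Rarb and had 0.29, and Metap1d, 4.25 kb from Dlx1, had 0.51. Without mutant library 2 the count was 8, where 4551 of all 16857 genes tested were called. It was 0 without control library 2 or 3, where 81 and 112 genes were called.

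**Figure D5:**
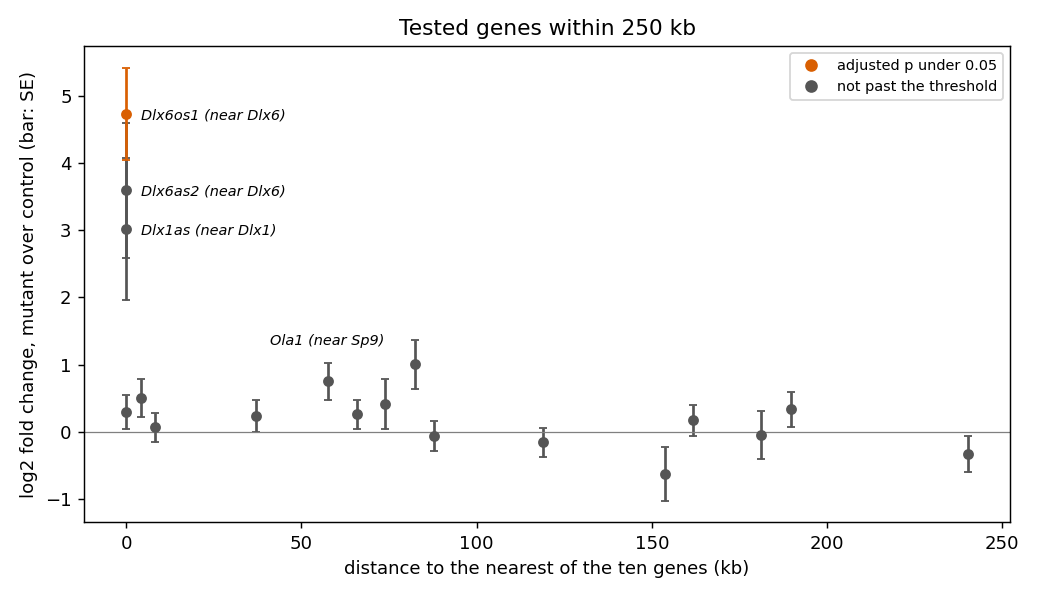
Log2 fold change of mutant over control (y axis, bars for SE) of the 18 fitted genes within 250 kb of the 10 genes, against the distance to the nearest of them in kb (x axis). The 3 RNAs that overlap Dlx1 or Dlx6 lie between 3.01 and 4.73 at distance 0, with Dlx6os1 the only gene past the threshold, and the remaining genes lie between -0.62 and 1.01.

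The mean profile of the 9 fitted genes, each standardised over the 6 libraries, was -0.60, -0.85 and -0.77 in controls and 1.10, -0.10 and 1.23 in mutants. The 6 genes most like it by Pearson's r of log2 CPM over the 6 libraries were Arrb1 (0.998), Tmem181b-ps, Tanc2, Cdc42se2, Dlg2 and Ubxn2b (0.996). These r describe libraries that fall into separate groups and carry no p. Arrb1, which encodes an arrestin that ends receptor signalling, had 114, 106 and 114 CPM in controls and 205, 134 and 214 CPM in mutants. Dlg2, a scaffold gene of synapses, had 214, 208 and 200 CPM in controls and 808, 310 and 914 CPM in mutants. None of the 6 passed by edgeR, and their fold changes were 0.51 to 1.71 on the log2 scale. In all 6 every mutant library was above every control, against 12.5% of all genes tested. The 6 were picked for likeness to a profile whose mutant values all lie above its control values. Nothing is therefore read from this lack of overlap.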

How the data were processed

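Per the labels' protocols, optic nerve RNA was amplified by the NuGEN Ovation method (RNA-Seq System v2) before Nextera XT library preparation. The deposited values are raw counts of fragments per gene, which the authors obtained using featureCounts 1.4.6-p4 over exons of the UCSC mm10 genes, per the file headers, which set counting on both strands together. TopHat, mm10 and DESeq2 are named in the submitters' processing notes. The files record no option to count a fragment for more than 1 gene.

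Counts were analysed with edgeR 4.0.16 in R 4.3.3: TMM scaling, filterByExpr (minimum count 10), quasi-likelihood F tests of 3 mutant against 3 control libraries with no covariate, and Benjamini-Hochberg adjustment over 16315 genes with a threshold of 0.05. SE is the absolute log2 fold change over the root of F. CPM uses TMM-scaled library sizes, and log2 CPM a prior count of 2. No pair of libraries agreed within sampling noise (smallest chi-square 48.2 per degree of freedom). Total counts are given in the report, and intervals and floors of 3 counts cover counting error only, since amplified copies are not independent molecules. The script was tested on simulated counts with less spread between replicates than these data and no library that stood apart. That test does not measure error rates in these data.

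The 10 genes and all lists were chosen with earlier results of these data known. Named are the 10 genes, up to 4 genes of each related list and of the genes within 250 kb (those past the threshold, then by smallest p), and the 6 genes most alike. Other genes with values, such as Meis1, Pdyn, Top2b and Metap1d, were named after their values were seen. A few genes chosen by this rule are left out and not reported here. Alternatives were DESeq2 size factors, total counts and upper quartile scaling, DESeq2 1.42.0, no low-count filter, the libraries of high Xist alone, and leaving out each library. Promoter windows hold up to 250 bases before RefSeq starts, and those of Sp9, Sp8 and Dlx2 are printed only where no annotated exon lies. The Rarb stretch was instead cut around the repeat, in a window that also holds annotated exons of Rarb and Gm48162.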

Additional observations from a re-analysis of the deposited data

How the results depend on the processing

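The log2 fold changes of the 9 fitted genes were positive under all 12 alternatives. Meis2 was past the threshold in 11 of them, Sp9 in 9, Dlx5 in 6, Rarb in 3, Dlx1, Dlx6 and Foxp2 in 2 each, and Dlx2 and Foxp1 in 1 each. Dlx6 had the widest range, 1.90 to 4.59, and Meis2 ran from 5.44 to 6.17. With 482 genes higher, 55 lower and 3 of the 10 genes called over all libraries, DESeq2 gave 1164, 492 and 7, and edgeR without a low-count filter gave 745, 125 and 5. Scaling by total counts gave 86 genes lower. Leaving out 1 library gave 49 to 2226 genes higher, 1 to 2325 lower and 1 to 10 of the 10 genes, the highest of each without mutant library 2. Among libraries of high Xist, with 1 control, edgeR gave 0, 0 and 0, with 894 genes at an unadjusted p under 0.05. The cause of these changes was not tested. Sp8 could be fitted in 7 alternatives and was past the threshold in 2 of them, without the filter (edgeR adjusted p 0.0391) and without mutant library 2 (0.000184). No paired analysis was made because the labels give no pairing of mutant with control libraries. Depth limits Sp8, Sp9 and Dlx2 most, which had 12, 18 and 78 counts over the 3 controls.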

Other observations

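Chat, Lhx8 and Sox11 are outside the naming rule and were picked out after their values were seen. Chat, the enzyme gene of acetylcholine synthesis, which in the striatum marks cholinergic interneurons, had 0, 0.207 and 0.0830 CPM in control libraries 1, 2 and 3 and 7.82, 2.72 and 6.28 CPM in mutant libraries 1, 2 and 3, a change of 5.72 on the log2 scale (SE 0.87, edgeR adjusted p 0.0124). Lhx8, a factor of cholinergic neurons from the ventral forebrain, had 0, 0.207 and 0.207 CPM in controls and 4.59, 1.29 and 4.67 CPM in mutants, a change of 4.57 (SE 0.94, edgeR adjusted p 0.0373). Sox11, a gene of immature neurons, had 22.1, 17.1 and 25.9 CPM in controls and 91.6, 40.0 and 108 CPM in mutants, a change of 1.88 (SE 0.37, edgeR adjusted p 0.0333). It was the only gene called among the 9 fitted neuroblast and immature neuron markers. That list had a median log2 fold change of 0.34. Its mean relative to control was 1.56, 0.22 and 1.11 in mutant libraries 1, 2 and 3 on the log2 scale. Chat, Lhx8 and Sox11 were above every control in every mutant library, against 12.5% of all genes tested. Since they were picked after their values were seen, nothing is read from this.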
